A study of Mus musculus with 24 samples.

Results

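Aminoacyl-tRNA synthetases are the enzymes that load each amino acid onto its transfer RNA. The 38 genes described here were taken by their symbols from a count table of 56980 genes, and comprise 21 synthetases of the cytosol and 17 of mitochondria, whose symbols end in 2. Expression was measured in primary wild-type mouse microglia, the resident macrophages of the brain, treated with 50 nM bafilomycin A1 (BafA1) for 1, 7, 14 or 22 h or with the vehicle DMSO for the same times. BafA1 inhibits the V-ATPase, the proton pump that acidifies lysosomes. Each of the 8 groups had 3 libraries. The microglia came from the cortex and hippocampus of newborn mice (P1 to P3), and were shaken off a mixed glial culture, so the cultures could hold other glia. The labels call the libraries biological replicates without giving litters or flasks. A p-value here sets a difference only against the variation among these libraries, estimated over all 24 of them. That variation may in part be technical.

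Most cytosolic synthetases belong to a different gene from the mitochondrial enzyme for the same amino acid, while Gars (glycine) and Kars (lysine) each serve both compartments. When an amino acid is scarce, uncharged transfer RNA activates the kinase Gcn2 (gene Eif2ak4), translation of the transcription factor Atf4 rises, and Atf4 with its C/EBP partners switches on amino acid transporters, biosynthetic enzymes and many cytosolic synthetases. Lysosomes return amino acids from degraded protein to the cytosol, and BafA1 is widely used to block that degradation. Several cytosolic synthetases sit together in the multisynthetase complex on the scaffold proteins Aimp1, Aimp2 and Eef1e1. The symbols here are those of the deposited table, in which Sars, Aars and their like stand for the genes now named Sars1, Aars1 and so on.

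Library totals ran from 1322169 to 4189077 counts, of which 2150 to 10773 per library fell on the synthetases. At 14 and 22 h the BafA1 libraries held 2805274 to 4189077 counts and the DMSO libraries 1332093 to 3056773. Of the 38 genes, 36 had enough counts to be tested, namely all 21 cytosolic genes and 15 of the 17 mitochondrial genes. Aars2 and Sars2, the mitochondrial alanyl and seryl enzymes, averaged 5.88 and 4.71 counts per library and were not tested. A difference was called at an adjusted p under 0.05 in edgeR's quasi-likelihood test, with Benjamini-Hochberg adjustment over the 12648 genes tested. Levels are given as CPM, that is, counts scaled to a library total of 1000000 after TMM adjustment of the totals. Changes are given as log2 of BafA1 over DMSO with an approximate standard error (SE). The SE is the absolute log2 change divided by the square root of the test's F statistic, and the 95% intervals use it.

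With BafA1, 9 of 21 cytosolic synthetase transcripts were called higher at 14 h, beside 12.1% of all genes, and 15 of 21 at 22 h, beside 17.9% of all genes. None was called at 1 h, and at 7 h the 2 called, Sars and Eprs, were a share of the tested synthetases near that of all genes (4.57%). Of the 15 mitochondrial genes tested, 1 was called at 14 h, lower, and 1 at 22 h, higher. The highest fold was that of Sars at 22 h, at 4.34-fold.

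At 1 h no synthetase was called in either direction, and neither was any other gene (0% of 12648). At an unadjusted p under 0.05, 2 of the 36 synthetases and 380 of all genes were found. DESeq2 and limma-voom also called 0 genes, while the fit with no filter on low counts called 22 genes higher and 4 lower, none of them a synthetase. The median log2 change was -0.004 over the cytosolic and 0.07 over the mitochondrial genes. Farsa, the catalytic alpha subunit of phenylalanyl-tRNA synthetase, had the smallest p, with 283, 188 and 228 CPM in the BafA1 libraries against 167, 149 and 177 CPM in the DMSO libraries. All 3 BafA1 values lay above the DMSO values, with a log2 change of 0.51 ± 0.16 (adjusted p = 1).

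At 7 h, Sars and Eprs were called higher, 2 of 36 synthetases (5.56%) beside 4.57% of all genes called higher; none was called lower, beside 2.57% of all genes. Sars, the seryl-tRNA synthetase, had 140, 203 and 185 CPM in the BafA1 libraries against 85.0, 105 and 123 CPM in the DMSO libraries, so that the groups did not overlap. Its log2 change was 0.75 ± 0.18 (adjusted p = 0.007191), and without DMSO replicate 1 it was 0.62 with an adjusted p of 0.07299. Eprs, which charges both glutamate and proline, had 200, 237 and 207 CPM with BafA1 against 118, 151 and 162 CPM with DMSO, a log2 change of 0.58 ± 0.17 (adjusted p = 0.04113). That call was lost without any 1 of 5 of the 6 libraries, with log2 changes between 0.45 and 0.63 there.

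With the replicate number as a block, 5 synthetases were called higher at 7 h in place of 2, and 906 of all 12648 genes in place of 578. The added genes were Cars (0.69, adjusted p = 0.03859), Nars (0.44, adjusted p = 0.009517) and Mars1 (0.55, adjusted p = 0.04833). Nars, the asparaginyl enzyme, had 590, 700 and 495 CPM in BafA1 libraries and 404, 478 and 431 CPM in DMSO libraries, with every BafA1 value above every DMSO value.

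By 14 h, 9 synthetases (25% of those tested) were called higher and 1 (2.78%) lower, beside 12.1% of all genes in each direction. All 9 were cytosolic, 42.9% of that compartment. They were Aars, Cars, Eprs, Gars, Iars, Rars, Sars, Tars and Yars. Cars, the cysteinyl enzyme, led with 41.8, 46.9 and 61.9 CPM in BafA1 libraries against 12.6, 15.0 and 22.6 CPM in DMSO libraries. The lowest BafA1 value was well above the highest DMSO value, and the log2 change was 1.56 ± 0.25 (adjusted p = 4.7e-05).

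Sars followed with 219, 256 and 224 CPM in the BafA1 libraries and 81.9, 91.2 and 124 CPM in the DMSO libraries, a log2 change of 1.23 ± 0.17 (adjusted p = 8e-06). Aars, the alanyl enzyme, had 54.4, 70.0 and 66.5 CPM with BafA1 against 21.7, 29.6 and 33.4 CPM with DMSO, and rose by 1.16 ± 0.19 (adjusted p = 5.9e-05). The arginyl enzyme Rars had close values within each group, with 71.7, 69.2 and 68.3 CPM under BafA1 and 35.4, 32.9 and 38.5 CPM under DMSO; its change was 0.97 ± 0.14 (adjusted p = 1.5e-05). In all of these the BafA1 libraries lay above the DMSO libraries without overlap. The share of all genes without overlap is given only for 22 h. At 1 h, where no gene was called, 4 of 21 cytosolic and 1 of 15 mitochondrial genes had every BafA1 library above every DMSO library.

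The other 5 called genes at 14 h rose by 0.60 to 0.96 on the log2 scale. Eprs changed by 0.96 ± 0.17, Yars by 0.85 ± 0.26, Gars by 0.79 ± 0.16, Tars by 0.65 ± 0.17 and Iars by 0.60 ± 0.20. The calls of Iars and Yars were lost without single libraries (Iars without DMSO replicate 1 or 2 or BafA1 replicate 2 or 3, adjusted p up to 0.1318; Yars without DMSO replicate 1 or 3 or BafA1 replicate 2, adjusted p up to 0.1528). Both were also lost with libraries thinned to the smallest total, at an adjusted p of 0.1123 for Iars and 0.08348 for Yars. Lars and Mars1 were called in addition when only the 6 libraries of 14 h were fitted (adjusted p = 0.0492 and 0.04876) and with the replicate block (adjusted p = 0.03208 and 0.03972).

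The gene called lower at 14 h was Lars2, the mitochondrial leucyl enzyme, with 13.9, 30.4 and 18.2 CPM in BafA1 libraries against 48.5, 38.7 and 35.6 CPM in DMSO libraries. Although the groups did not overlap, the 3 BafA1 libraries differed among themselves by more than 2-fold. Its log2 change was -0.96 ± 0.32 (adjusted p = 0.02858), and the call was lost without DMSO replicate 1 or 2 or BafA1 replicate 1 or 3, with changes of -0.99 to -0.74. At 22 h Lars2 had 15.4, 41.7 and 29.4 CPM with BafA1 and 39.4, 43.6 and 31.9 CPM with DMSO, where the groups overlapped and the change was -0.42 ± 0.32 (adjusted p = 0.3025).

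After 22 h, 16 synthetases (44.4% of those tested) were called higher and 0 lower, beside 17.9% of all genes called higher and 22% called lower. Of the cytosolic genes 15 of 21 (71.4%) were called, and of the mitochondrial genes 1 of 15 (6.67%). Every BafA1 library lay above every DMSO library for 17 of the 21 cytosolic and 3 of the 15 mitochondrial genes, beside 23.5% of all genes, and below for none, beside 24.8% of all genes. Sars had 355, 469 and 358 CPM in the BafA1 libraries and 87.1, 80.2 and 103 CPM in the DMSO libraries. All 3 BafA1 values were more than 3 times the highest DMSO value; the log2 change was 2.12 ± 0.18, or 4.34-fold (adjusted p = 1.052e-09). Aars had 95.0, 102 and 109 CPM with BafA1 against 30.7, 23.4 and 35.0 CPM with DMSO, a change of 1.76 ± 0.19 (adjusted p = 8.063e-08).

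Cars had 50.6, 72.9 and 48.2 CPM with BafA1 against 11.9, 17.1 and 24.8 CPM with DMSO. The lowest BafA1 library stood clear of the highest DMSO library, and the change of 1.68 ± 0.26 (adjusted p = 1.12e-05) was close to that at 14 h. Eprs had 410, 517 and 383 CPM under BafA1 and 178, 159 and 175 CPM under DMSO, an increase of 1.35 ± 0.17 (adjusted p = 8.262e-07). Rars reached 78.8, 71.7 and 85.4 CPM with BafA1, against 38.8, 29.6 and 43.0 CPM with DMSO, and changed by 1.06 ± 0.14 (adjusted p = 2.042e-06).

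**Figure D1:**
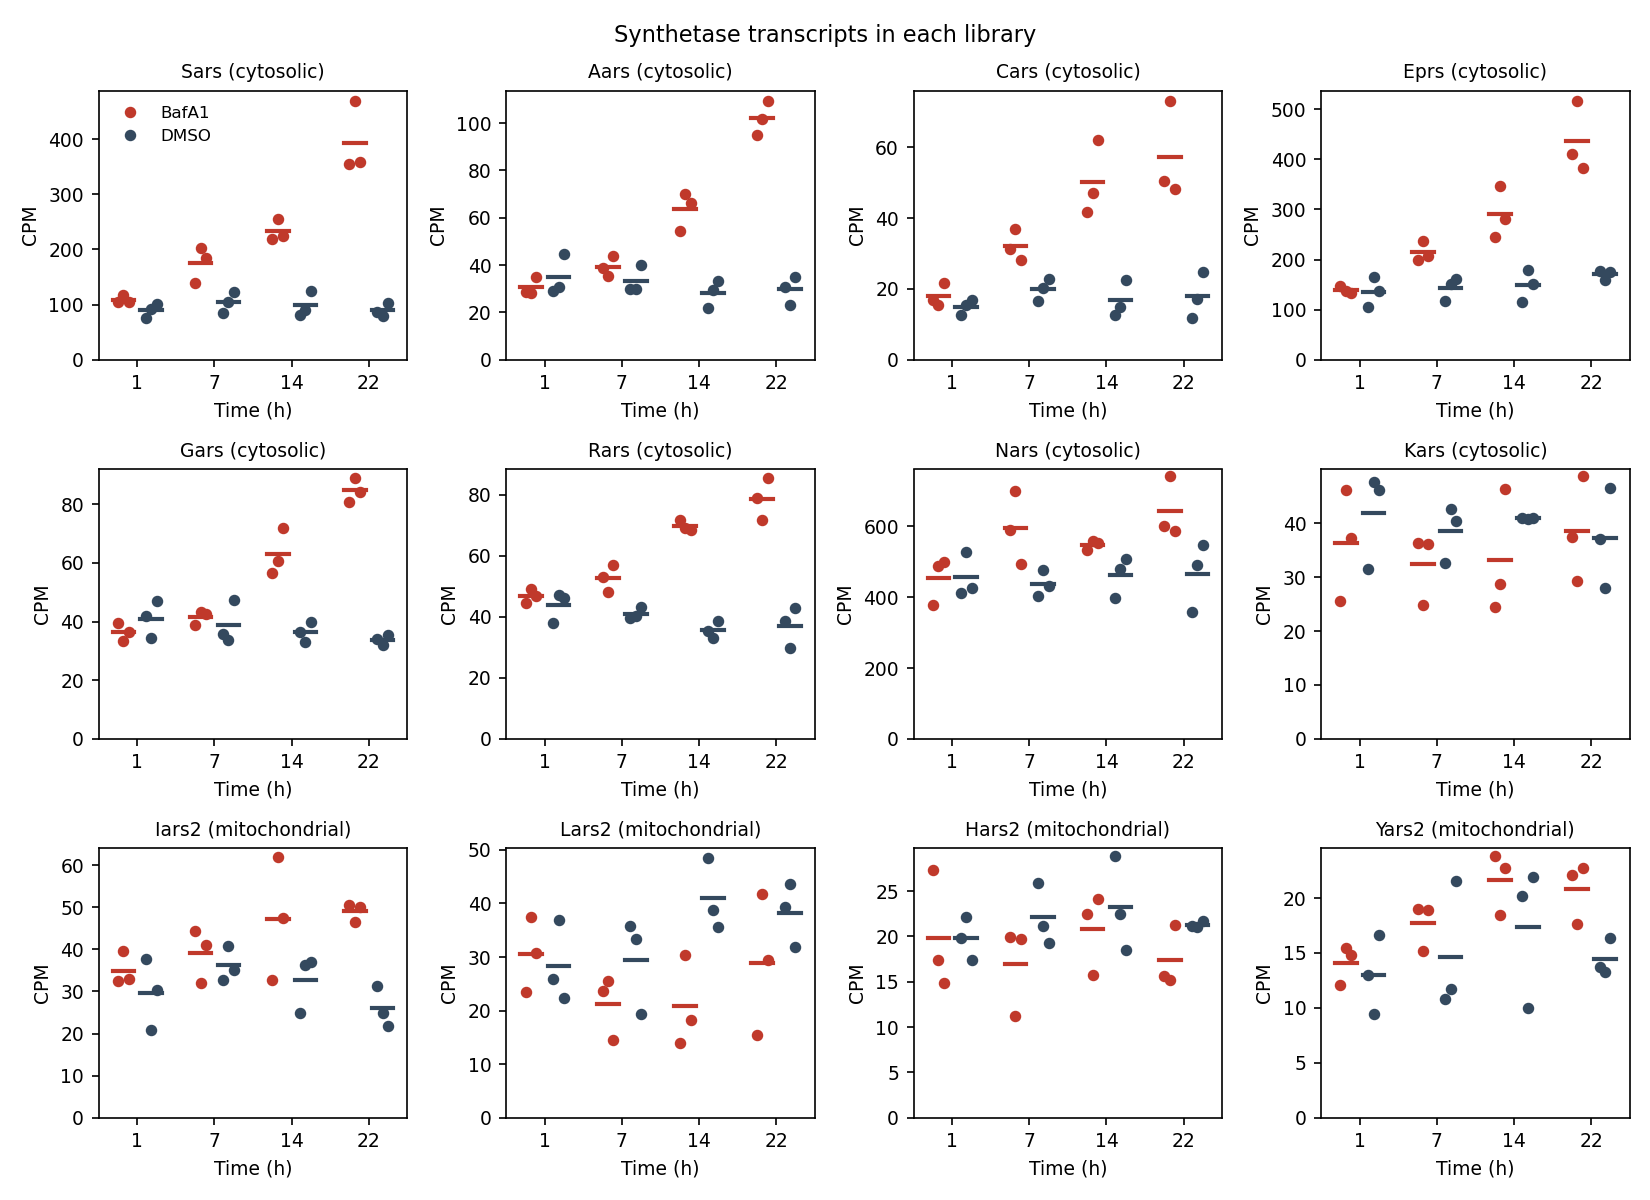
Level of 12 synthetase transcripts in each library, in CPM (linear axes from 0), against time; each point is 1 library, with BafA1 in red on the left and DMSO in dark grey on the right of each time, and lines mark the means of 3 libraries. Sars reached 355 to 469 CPM with BafA1 at 22 h while its DMSO libraries held 80.2 to 103 CPM, whereas the points of Kars, Lars2 and Hars2 overlapped at 22 h.

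The rest of the cytosolic genes called at 22 h rose by 0.45 to 1.32. Mars1, the methionyl enzyme, averaged 71.6 ± 9.40 CPM in BafA1 libraries and 31.7 ± 3.44 CPM in DMSO libraries (SD, n = 3 each), and changed by 1.19 ± 0.22. Wars, the tryptophanyl enzyme, which is also known as an interferon-induced gene, had 41.4 ± 0.878 CPM against 16.3 ± 4.49 CPM and changed by 1.31 ± 0.37. Yars (tyrosine) rose by 0.99 ± 0.25, Dars (aspartate) by 0.94 ± 0.20, Iars (isoleucine) by 0.88 ± 0.20, Tars (threonine) by 0.84 ± 0.18 and Lars (leucine) by 0.65 ± 0.18. Iars averaged 93.1 ± 6.12 CPM with BafA1 and 49.8 ± 8.84 CPM with DMSO, and Lars 101 ± 2.96 CPM and 64.1 ± 9.12 CPM in the same order.

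The smallest called changes at 22 h were those of Nars and Farsa. Nars had 602, 742 and 588 CPM in the BafA1 libraries against 359, 492 and 547 CPM in the DMSO libraries. The lowest BafA1 value stood only a little above the highest DMSO value. Its change was 0.47 ± 0.16 (adjusted p = 0.02181), and became 0.35 (adjusted p = 0.09146) without DMSO replicate 1 and 0.36 (adjusted p = 0.1138) without BafA1 replicate 2. Farsa had 224, 225 and 238 CPM with BafA1 and 174, 146 and 180 CPM with DMSO, a change of 0.45 ± 0.16 (adjusted p = 0.02757). Without DMSO replicate 2 it was 0.38 (adjusted p = 0.115), and without BafA1 replicate 3 it was 0.43 (adjusted p = 0.07083). Farsb, the beta subunit that pairs with Farsa in 1 enzyme, had 51.4 ± 2.92 CPM with BafA1 and 45.3 ± 4.19 CPM with DMSO, and its change of 0.17 ± 0.13 was not called.

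Besides Farsb, 5 cytosolic genes were not called at 22 h. Hars (histidine) averaged 24.3 ± 5.97 CPM in BafA1 libraries and 16.4 ± 2.54 CPM in DMSO libraries, with a log2 change of 0.56 ± 0.24 (adjusted p = 0.06917); it was called with the replicate block (adjusted p = 0.04448) and without BafA1 replicate 2 (adjusted p = 0.04076). Qars (glutamine) had 91.7 ± 17.8 CPM with BafA1 and 125 ± 56.6 CPM with DMSO, and its change of -0.42 had a 95% interval from -1.08 to 0.23. At 14 h Qars changed by -0.59 ± 0.31, a difference called lower with the replicate block (-0.57, adjusted p = 0.01731). Vars (valine) changed by -0.18, with an interval from -1.04 to 0.67, and Tarsl2, another threonyl enzyme of the cytosol, by -0.78, with an interval from -1.77 to 0.22. Their averages at 22 h were 8.04 and 3.38 CPM with BafA1 and 8.80 and 5.39 CPM with DMSO.

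The enzymes that serve both compartments differed in their values. Gars had 80.8, 89.0 and 84.2 CPM in the BafA1 libraries at 22 h against 34.0, 31.9 and 35.5 CPM in the DMSO libraries, groups that were tight and far apart. It rose by 1.32 ± 0.16 at 22 h (adjusted p = 2.994e-07) and by 0.79 ± 0.16 at 14 h (adjusted p = 0.000431), with 0.09 ± 0.16 at 7 h. Kars, which also belongs to the multisynthetase complex, had 37.5, 29.3 and 48.8 CPM with BafA1 and 37.2, 28.0 and 46.6 CPM with DMSO at 22 h. The Kars libraries overlapped fully, and the change of 0.03 had a 95% interval from -0.49 to 0.56. At 14 h Kars had 24.5, 28.8 and 46.4 CPM with BafA1 against 40.9, 40.8 and 41.1 CPM with DMSO (-0.30 ± 0.25).

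**Figure D2:**
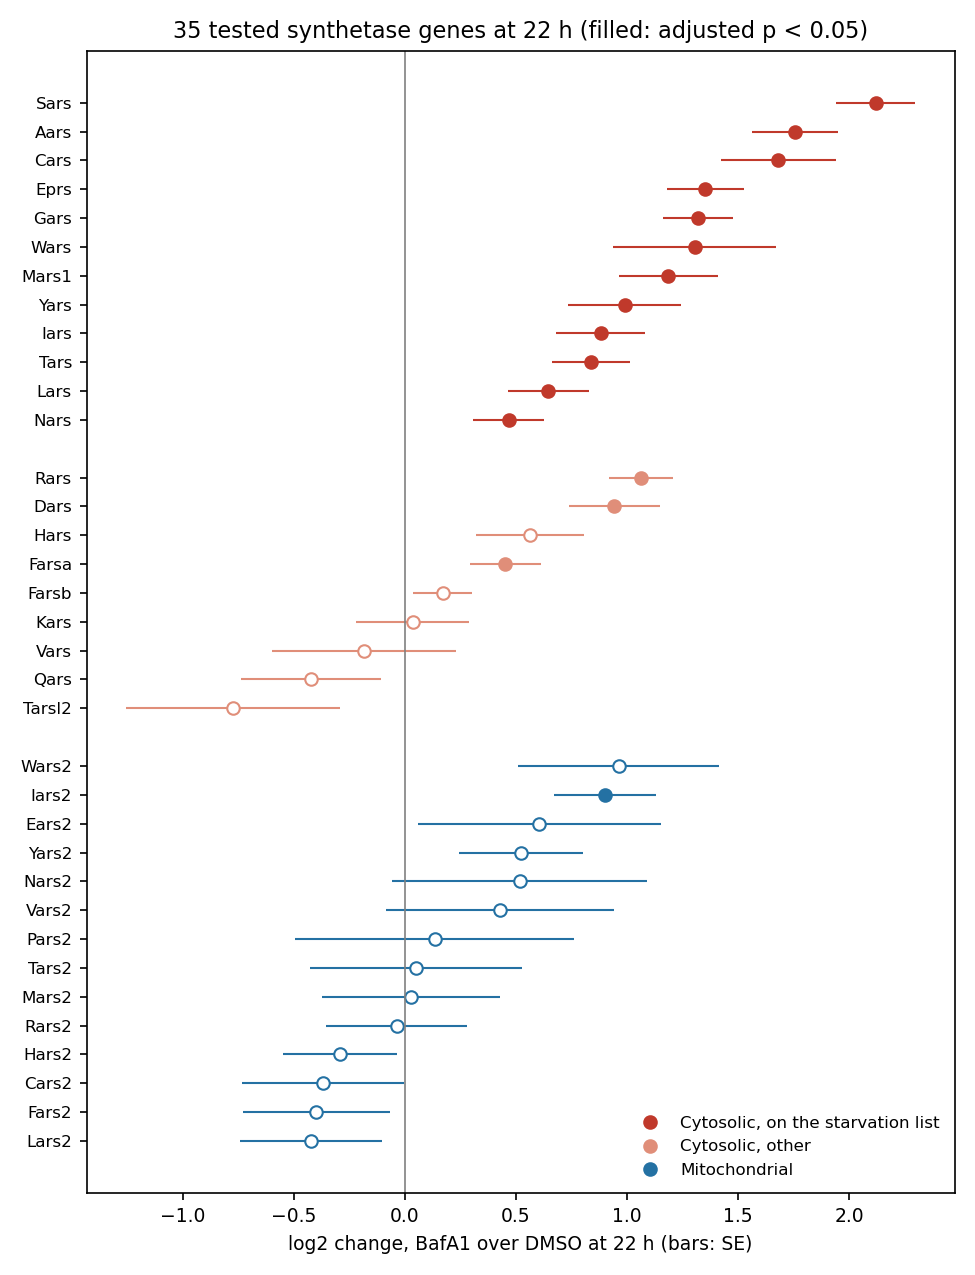
The log2 change of BafA1 over DMSO at 22 h for 35 of the 36 tested synthetases, with SE bars and filled symbols for an adjusted p under 0.05; genes are ordered by size within 3 groups (cytosolic genes on the starvation list, other cytosolic genes, mitochondrial genes). All 12 genes on the list are filled, at 0.47 to 2.12, against 3 of 9 other cytosolic genes and 1 of the 14 mitochondrial genes drawn.

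A list of 12 cytosolic synthetases known in mammalian cells to rise when amino acids run short or when Atf4 is active (Aars, Cars, Eprs, Gars, Iars, Lars, Mars1, Nars, Sars, Tars, Wars and Yars) was set beside the other 9. The list was drawn up with earlier results of these data known and is no independent evidence. At 7, 14 and 22 h, 2, 8 and 12 of the 12 listed genes were called higher, and 0, 1 and 3 of the other 9 were, beside 4.57%, 12.1% and 17.9% of all genes; none of either group was called lower. With the replicate block the listed genes called were 5, 10 and 12, the other genes called were 0, 1 and 4, and Qars, outside the list, was called lower at 14 h. The block called 906, 2003 and 2691 of all 12648 genes higher at 7, 14 and 22 h. The median log2 changes of the listed genes were 0.44, 0.72 and 1.25 at 7, 14 and 22 h, those of the other 9 were -0.04, 0.01 and 0.17, and those of all genes were -0.02, -0.05 and -0.06. The genes called outside the list were Rars at 14 h and Rars, Dars and Farsa at 22 h.

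**Figure D3:**
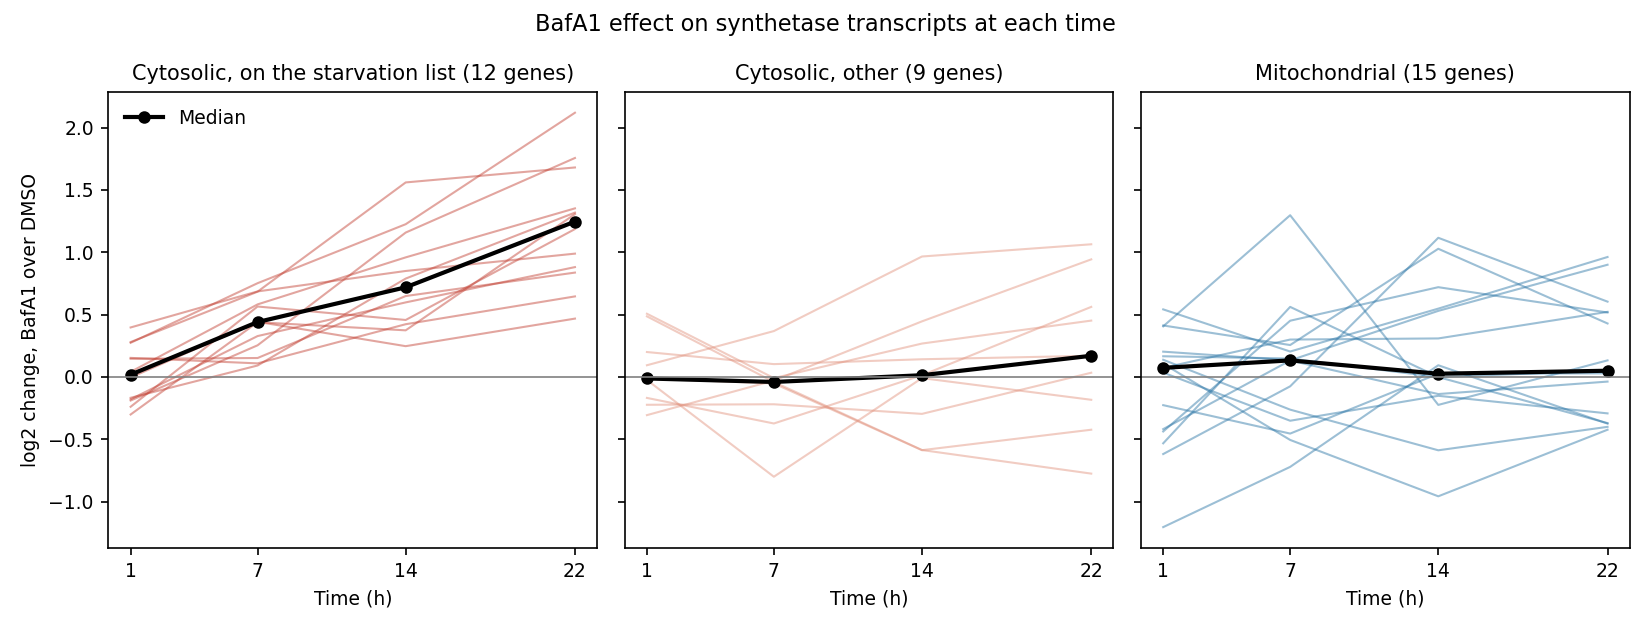
The log2 change of BafA1 over DMSO against time in h for each tested synthetase (thin lines) and the group median (black), in 3 panels for the 12 listed cytosolic genes, the other 9 cytosolic genes and the 15 mitochondrial genes. The medians at 22 h were 1.25, 0.17 and 0.05.

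Split by role, 6 of the 8 synthetases of the multisynthetase complex were called higher at 22 h (Dars, Eprs, Iars, Lars, Mars1 and Rars), 3 at 14 h and 1 at 7 h, beside 17.9%, 12.1% and 4.57% of all genes at these times; Kars and Qars were not called. Among the scaffolds of that complex, Aimp2 and Eef1e1 rose while Aimp1 was not called at any time. Aimp2 had 34.9, 37.3 and 47.3 CPM in BafA1 libraries at 22 h against 10.9, 11.7 and 16.4 CPM in DMSO libraries, a log2 change of 1.61 ± 0.32 (adjusted p = 0.0002324), and Eef1e1 changed by 1.15 ± 0.24 (adjusted p = 0.0005458). Aimp1 changed by 0.08 ± 0.15 at 22 h. By enzyme class, which reflects the fold of the catalytic domain, 8 of 18 class I and 7 of 17 tested class II genes were called higher at 22 h, beside 17.9% of all genes; Kars, Gars and the phenylalanyl subunits belong to class II. Eprs, which joins a domain of each class, was counted in neither.

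Cytosolic synthetases had a median log2 change of 0.15, 0.45 and 0.88 at 7, 14 and 22 h, and mitochondrial synthetases one of 0.13, 0.03 and 0.05. Whether the compartments differed as a whole was not tested, and the changes were more precise for cytosolic genes (median SE of 0.20 at 22 h) than for mitochondrial genes (0.40). Iars2, the isoleucyl enzyme of mitochondria, was the 1 called gene at 22 h, with 50.6, 46.5 and 50.0 CPM in BafA1 libraries against 31.4, 24.9 and 21.7 CPM in DMSO libraries. The groups did not overlap; the change was 0.90 ± 0.23 (adjusted p = 0.002882) and was called without each of the 6 libraries in turn. At 14 h Iars2 changed by 0.53 ± 0.22 (adjusted p = 0.0858).

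Of the other mitochondrial genes at 22 h, Wars2 (tryptophan) and Yars2 (tyrosine) also had every BafA1 library above every DMSO library, without being called. Wars2 had 8.21, 8.02 and 5.76 CPM with BafA1 against 3.52, 3.12 and 4.44 CPM with DMSO (0.96 ± 0.45, adjusted p = 0.09346). Yars2 had 22.1, 17.6 and 22.7 CPM with BafA1 and 13.8, 13.2 and 16.4 CPM with DMSO (0.52 ± 0.28, adjusted p = 0.1408). Changes of Ears2, Fars2, Hars2, Cars2, Lars2, Mars2, Nars2, Pars2, Rars2, Tars2 and Vars2 at 22 h lay between -0.42 and 0.60. The interval of Rars2, which ran from -0.69 to 0.62, still holds a change of more than 1.5-fold in either direction. Ears2 was called higher at 14 h when the fit held only the 6 libraries of that time (1.13, adjusted p = 0.03856), but not in the fit of 24 libraries (1.12 ± 0.56, adjusted p = 0.1515).

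For 12 amino acids both the cytosolic and the mitochondrial enzyme were tested. The cytosolic change exceeded the mitochondrial one for 7, 8, 9 and 9 of these 12 amino acids at 1, 7, 14 and 22 h, with median differences of 0.08, 0.24, 0.39 and 0.82 on the log2 scale. At 22 h the widest gap was that of cysteine, with a change of 1.68 ± 0.26 for Cars and -0.37 ± 0.37 for Cars2. For leucine the pair had 0.65 ± 0.18 for Lars and -0.42 ± 0.32 for Lars2, and for arginine 1.06 ± 0.14 for Rars and -0.04 ± 0.32 for Rars2. The isoleucine pair had nearly equal values, 0.88 ± 0.20 for Iars and 0.90 ± 0.23 for Iars2. Valine ran the other way, with -0.18 ± 0.41 for Vars and 0.43 ± 0.51 for Vars2, neither called. None of these differences was tested.

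Summed over genes, the cytosolic synthetases made up 2740 ± 252 CPM in BafA1 libraries and 1520 ± 137 CPM in DMSO libraries at 22 h, and the mitochondrial synthetases 199 ± 17.1 and 180 ± 9.91 CPM (SD, n = 3). The ratio of the cytosolic to the mitochondrial sum was 13.8, 15.7 and 12.0 in the BafA1 libraries at 22 h against 7.28, 8.82 and 9.32 in the DMSO libraries. At 14 h it was 12.0, 11.1 and 10.9 with BafA1 against 7.21, 8.54 and 8.57 with DMSO, so that the groups did not overlap at either time. At 7 h the values of 9.56, 11.7 and 10.7 with BafA1 and 7.98, 7.72 and 9.68 with DMSO overlapped, as did those at 1 h (8.65, 8.09 and 9.42 against 7.51, 8.15 and 8.88). Abundant genes weigh most in these sums and in the ratio. Nars, Eprs and Sars, the most abundant with BafA1 at 22 h, averaged 644, 437 and 394 CPM there. With DMSO they averaged 466, 171 and 90.2 CPM. The ratio is a description of these libraries and carries no test.

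**Figure D4:**
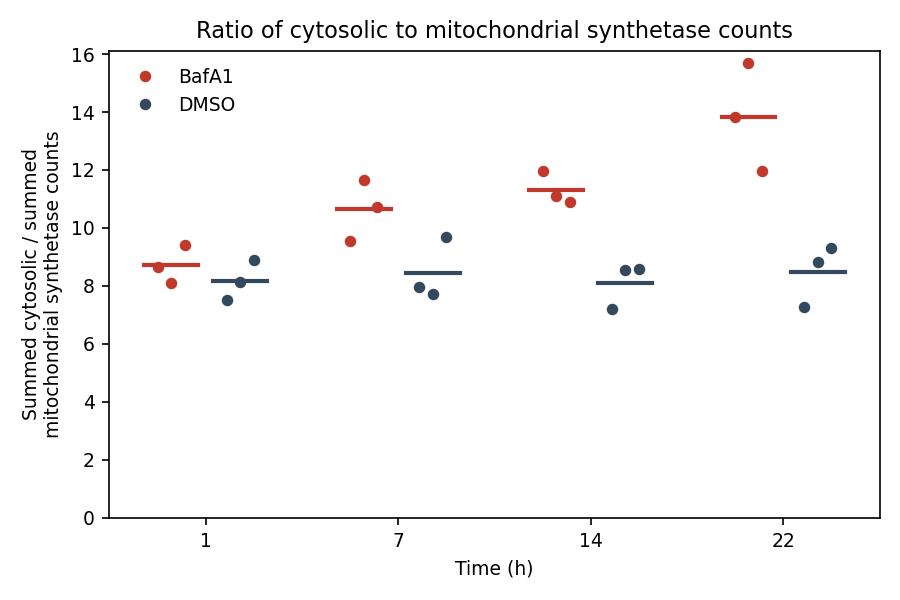
Ratio of summed cytosolic to summed mitochondrial synthetase counts in each library against time in h, with BafA1 in red on the left and DMSO in dark grey on the right; points are libraries and lines are means of 3. The BafA1 libraries lie at 12.0 to 15.7 at 22 h, above the DMSO libraries at 7.28 to 9.32.

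Whether the BafA1 effect itself changed with time was asked by contrasts of the effects at successive times. Without the replicate block, no synthetase was called in any of the 3 successive steps. Of all genes, 1.57%, 0.735% and 0.419% were called for a higher effect from 1 to 7, 7 to 14 and 14 to 22 h. For a lower effect, 0.656%, 1.53% and 1.57% were called. At an unadjusted p under 0.05, 3, 4 and 4 of 36 synthetases were found in those steps, beside 1526, 1927 and 1783 of all 12648 genes. From 1 to 7 h the smallest p was that of Mars1, with a difference of effects of 0.80 ± 0.32 (adjusted p = 0.2552; 1.08 and called at 0.04718 without DMSO replicate 1 of 1 h), followed by Farsa (-0.52 ± 0.23), Eprs (0.54 ± 0.25) and Nars (0.45 ± 0.23). From 7 to 14 h, Aars (0.91 ± 0.28, adjusted p = 0.08809), Gars (0.70 ± 0.22, adjusted p = 0.1085), Rars (0.60 ± 0.20) and Cars (0.88 ± 0.36) led. From 14 to 22 h Sars led with 0.89 ± 0.25 (adjusted p = 0.05729), ahead of Gars (0.53 ± 0.22), Mars1 (0.73 ± 0.31) and Aars (0.60 ± 0.27).

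With the replicate block, Aars (adjusted p = 0.009483) and Gars (adjusted p = 0.03473) were called for the step from 7 to 14 h, and Sars (adjusted p = 0.004188) for the step from 14 to 22 h. Of all 12648 genes, the block called 358 and 229 for a higher effect in these steps. DESeq2 also called Sars in the last step (adjusted p = 0.01899), and so did the fit with no filter on low counts (adjusted p = 0.0245).

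Wider steps, a comparison chosen after the data were seen, gave calls in cytosolic genes. Between 7 and 22 h the effect was called higher for 6 synthetases, beside 5.94% of all genes called higher and 10.1% lower, and between 1 and 22 h for 11, beside 10.5% higher and 14.3% lower; no mitochondrial gene was called in either. Sars had a difference of effects of 1.37 between 7 and 22 h and of 1.84 between 1 and 22 h, and Aars of 1.50 and 1.95. The count between 7 and 22 h was 10 with the replicate block, which added Cars, Farsa, Hars and Tars, 4 with only the libraries compared, which lost Dars (adjusted p = 0.06137) and Rars (adjusted p = 0.06072), and 3 to 8 when single libraries were left out. Of all genes, the block called 1252 of 12648 higher for this step, in place of 751, and the fit of only the libraries compared called 604 of 12005. In the DMSO cultures alone no synthetase was called between 22 and 1 h, beside 0.372% of all genes called higher and 0.0316% called lower. The DMSO changes had a median of -0.03 over the cytosolic and 0.12 over the mitochondrial genes. An unadjusted p under 0.05 was found for 2 of 36 synthetases, beside 1031 of all 12648 genes. DESeq2 and limma-voom also called 0 synthetases.

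Promoter sequence was read for the synthetases because 15 of the 21 cytosolic genes were called higher at 22 h, while 6 were not called. Atf4 is known to bind a composite element with C/EBP partners, searched here as TGATGNAA on both strands in windows of 300 bases, from 250 bases before to 50 bases after the RefSeq start (build GRCm38.p6). Of the 38 genes, 28 had a window in the table. Those without one included Cars, Hars, Lars, Nars, Rars, Vars, Wars, Hars2 and Pars2. The element was found in 5 of 14 cytosolic windows (Aars, Gars, Iars, Tars and Yars) and in 0 of 14 mitochondrial genes' windows, beside 3.97% of the 32851 windows of all genes. All 5 genes with a match were called higher at 22 h, out of 10 called and 4 uncalled cytosolic genes with a window. Sars, which rose most, held no match in its window. The stretches around the matches follow, each read 5′ to 3′ on the gene's strand with the matched bases in capitals and not more than 30 bases after the start shown.
Aars upstream: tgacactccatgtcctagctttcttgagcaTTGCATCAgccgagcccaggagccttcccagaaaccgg
Aars at the start: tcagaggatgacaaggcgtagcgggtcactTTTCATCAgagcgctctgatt
Gars: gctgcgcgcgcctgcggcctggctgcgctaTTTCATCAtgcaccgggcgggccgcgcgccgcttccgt
Iars: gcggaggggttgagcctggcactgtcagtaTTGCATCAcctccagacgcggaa
Tars: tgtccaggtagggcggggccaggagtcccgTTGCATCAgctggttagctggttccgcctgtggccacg
Yars: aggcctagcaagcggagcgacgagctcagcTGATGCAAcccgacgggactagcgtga

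These stretches lie at chr8:111033700-111033767 and chr8:111033821-111033871 (Aars, plus strand), chr6:55037941-55038008 (Gars, plus strand), chr13:49682107-49682159 (Iars, plus strand), chr15:11399636-11399703 (Tars, minus strand) and chr4:129189876-129189932 (Yars, plus strand). Counting the first transcribed base as 0, the matches span -112 to -105 and 9 to 16 in Aars, -30 to -23 in Gars, 7 to 14 in Iars, -15 to -8 in Tars and 3 to 10 in Yars. The form TGATGCAA, present in 1 match each of Aars, Iars, Tars and Yars, occurs in 0.895% of all windows. A match describes the letters in the window and is no evidence that a factor binds there.

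Genes of the same pathway were given beside the synthetases from lists drawn up with earlier results known. Atf4 had 1254, 1415 and 1362 CPM in BafA1 libraries at 22 h against 166, 154 and 204 CPM in DMSO libraries, a log2 change of 2.94 ± 0.20 (adjusted p = 2.14e-11), after 1.44 at 7 h and 2.23 at 14 h. Impact, an inhibitor of Gcn2, was called higher at the same 3 times (1.46 ± 0.19 at 22 h), while Eif2ak4, which encodes Gcn2, and its activator Gcn1 were not called (-0.02 ± 0.30 and 0.45 ± 0.19 at 22 h). Of a set of 6 stress response genes (Atf3, Asns, Chac1, Ddit3, Sesn2 and Trib3), 2, 6 and 6 were called higher at 7, 14 and 22 h. Of all genes, 4.57%, 12.1% and 17.9% were called higher at these times. With the replicate block Asns, Ddit3 and Trib3 were added at 7 h (adjusted p of 0.03995, 0.007351 and 0.01469). That made 5 of 6, beside 906 of all 12648 genes with the block. The largest of these changes at 22 h were 4.62 ± 0.42 for Trib3 and 3.87 ± 0.33 for Ddit3.

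Among 5 tested genes of tRNA proofreading, repair and export, Xpot and Prorsd1 were called higher and Dtd1 and Aarsd1 lower at 22 h, beside 17.9% of all genes higher and 22% lower; the replicate block added Trnt1, higher (0.51, adjusted p = 0.04496). Xpot, which exports tRNA from the nucleus, had 196, 184 and 174 CPM with BafA1 and 77.8, 91.9 and 98.9 CPM with DMSO (1.05 ± 0.13, adjusted p = 6.439e-07). Prorsd1 changed by 0.61 (adjusted p = 0.01251). Its call was lost without DMSO replicate 2 (0.53, adjusted p = 0.05736) or DMSO replicate 3 (0.53, adjusted p = 0.05856). Dtd1, which removes D-amino acids from tRNA, changed by -0.99 ± 0.28 (adjusted p = 0.00598), and by -0.68 (adjusted p = 0.08458) without DMSO replicate 3 and -0.86 (adjusted p = 0.08219) with no filter on low counts. Aarsd1, which clears serine from mischarged alanine tRNA, changed by -1.20 ± 0.46 (adjusted p = 0.0376), and the call was lost without BafA1 replicate 1 or 3 or DMSO replicate 2 or 3. It was also lost in DESeq2 (adjusted p = 0.05895), in limma-voom (adjusted p = 0.05264), with no filter (adjusted p = 0.3114) and with thinned libraries (adjusted p = 0.2771). None of the 4 genes that complete mitochondrial charging (Mtfmt, Gatb, Gatc and Qrsl1) and none of the 4 selenocysteine genes was called at any time. At 22 h Gatc changed by 0.03 ± 0.38 and Secisbp2 by 0.35 ± 0.22.

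The 5 cytosolic elongation factors, which bring charged tRNA to the ribosome or move it along, had 1 call, Eef1d lower at 14 h (-0.50 ± 0.17, adjusted p = 0.0328), and no call at 22 h. Among all genes 12.1% were called lower at 14 h, and 17.9% higher and 22% lower at 22 h. The Eef1d call was lost with no filter on low counts and without 4 of the 6 libraries in turn (adjusted p up to 0.1512). The replicate block added Eef1g, lower at 14 h (-0.32, adjusted p = 0.007705), and Eef1a1, higher at 22 h (0.23, adjusted p = 0.02071; 0.22 ± 0.14 without the block). Of the 4 mitochondrial elongation factors, Tsfm was called higher at 14 h, and Gfm1, Gfm2 and Tsfm at 22 h, beside 12.1% and 17.9% of all genes. The block added Gfm1 at 14 h (0.64, adjusted p = 0.03374) and Tufm at 22 h (0.62, adjusted p = 0.03343). Gfm1 had 14.9, 13.6 and 21.2 CPM with BafA1 and 8.01, 7.79 and 8.87 CPM with DMSO (1.01 ± 0.26, adjusted p = 0.002875), and with libraries thinned to the smallest total 0.52 (adjusted p = 0.2309). Tsfm averaged 14.0 ± 1.62 CPM with BafA1 and 8.14 ± 0.450 CPM with DMSO at 22 h (SD, n = 3 each; 0.78 ± 0.27, adjusted p = 0.02292). Its calls were lost in some settings, among them thinned libraries at both times, with adjusted p up to 0.1006 at 14 h and 0.1549 at 22 h. Gfm2 had 142, 17.2 and 19.4 CPM with BafA1 against 17.6, 10.1 and 29.7 CPM with DMSO. A single BafA1 library carried the call (1.62 ± 0.58, adjusted p = 0.02775), and without it the change was -0.10 (adjusted p = 0.8948).

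Marker genes moved with the treatment in the same libraries. Of all genes, 2.57%, 12.1% and 22% were called lower at 7, 14 and 22 h. Of 9 microglial markers, 2, 7 and 7 were called lower at these times. Their summed levels were 1677 to 2339 CPM in BafA1 libraries at 22 h against 4598 to 6771 CPM in DMSO libraries. Of 9 markers of the oligodendrocyte lineage, 6, 6 and 8 were called lower at these times, with 86.7 to 116 CPM against 578 to 722 CPM at 22 h. Of 6 astrocyte markers, 0, 3 and 4 were called lower, with 31.3 to 56.4 CPM against 121 to 207 CPM at 22 h. The 4 neuronal markers summed to 8.73 to 14.0 CPM against 30.6 to 47.5 CPM at 22 h, but only 1, Tubb3, was tested. Most of the sum was Tubb3, which averaged 9.52 CPM with BafA1 and 34 CPM with DMSO. Rbfox3, Snap25 and Syt1 averaged 1.58, 0.101 and 0.827 CPM with BafA1 and 2.17, 1.63 and 2.88 CPM with DMSO. The replicate block added 3 microglial markers at 7 h (Aif1, C1qa and P2ry12) and, among others, 1 astrocyte marker at 22 h (Aqp4), all lower. With the block, 649 of all 12648 genes were called lower at 7 h and 3289 at 22 h. No marker was at 0 in all libraries of a group. In bulk samples, fewer cells of a type and less RNA per cell cannot be told apart, and the part of the marker shifts in the synthetase changes was not tested.

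Read sharing limits the values of Aars and Iars. The last 500 bases of Aars shared 470 31-base words with Exosc6, and those of Iars 450 with Gm4849, in the GRCm38 annotation, so reads could be split between them. Exosc6 changed by 0.79 ± 0.38 at 22 h (adjusted p = 0.09882), with 6 to 65 counts per library, and Gm4849 had 0 to 2 counts per library.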

How the data were processed

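Poly(A) RNA of 24 cultures was measured with a 3′ tag kit (QuantSeq FWD with unique molecular identifiers, read from 1 end over 75 bases), as the labels' protocols say. The authors deposited estimated counts per gene, made with Salmon on GRCm39 per the submitters' processing notes, with no version stated. Of the values above 0, 37.1% were not whole, and all were rounded. A 3′ tag gives no isoform. Gene coordinates are not given, because the annotation at hand is of GRCm38; RefSeq windows of GRCm38.p6 gave promoter sequence.

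Genes passing edgeR's filterByExpr (12648 of 56980; the rest held 0.7% of counts) were scaled by TMM and tested with edgeR 4.0.16 (limma 3.58.1, R 4.3.3), quasi-likelihood, two-sided, with 1 coefficient per group over all 24 libraries and Benjamini-Hochberg adjustment; intervals are 95%. Alternatives were RLE size factors, no filter, a filter of 5 CPM in 3 libraries, DESeq2 1.42.0, limma-voom, only the libraries compared, libraries thinned to the smallest total, the replicate number as a block, and leaving out each library. Replicate pairs within a group differed by more than sampling noise. Deviations from group means correlated between same-numbered BafA1 and DMSO libraries at 0.256 to 0.532 over 5000 genes in all 12 pairs. The numbers, which come from the sample titles, were taken to pair the libraries in the fit with the replicate block. That fit gives each number a single effect shared by all times. Whether same-numbered libraries match between times, or differently numbered ones correlate as well, was not examined. Calls, SE and adjusted p-values are from the fit without this pairing unless another setting is named, and so are genes given as not called. At 14 h the block called 2003 genes higher and 2163 lower, in place of 1526 and 1528.

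The members and lists were chosen with earlier results of these data known. Values in full are given for the 4 largest called rises of cytosolic genes and up to 4 called mitochondrial genes at 7, 14 and 22 h, called falls, Gars, Kars, and the 4 smallest p-values of each successive step; Wars2, Yars2, Farsb, Hars, Qars, Vars and Tarsl2 were added after their values were seen. Totals of 1322169 to 4189077 counts put 3 counts at 0.77 to 2.4 CPM, for counting error only. The values of some tested genes enter the counts, sums and medians but are not reported here.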

Additional observations from a re-analysis of the deposited data

Results flagged for a closer look

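The BafA1 effect differed between times for the following cytosolic synthetases, by a contrast of the effects chosen after the data were seen. Between 7 and 22 h the difference of effects, in log2 units and with the 22 h effect larger, was 1.50 for Aars, 0.97 for Dars, 0.77 for Eprs, 1.23 for Gars, 0.70 for Rars and 1.37 for Sars. Of these, Aars, Gars and Sars were called in every setting tried, while Dars, Eprs and Rars were lost in some (adjusted p up to 0.09879). Between 1 and 22 h it was 1.95 for Aars, 1.40 for Cars, 1.25 for Dars, 1.31 for Eprs, 1.49 for Gars, 1.06 for Iars, 1.43 for Mars1, 0.97 for Rars, 1.84 for Sars, 0.69 for Tars and 1.61 for Wars. Both contrasts share the 22 h libraries. Tars and Wars lost the call when single libraries were left out, with adjusted p up to 0.1173 for Tars and 0.1492 for Wars. In the DMSO cultures no synthetase was called between 22 and 1 h.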

How the results depend on the processing

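For named genes, 934 of the 1000 values under alternatives kept their direction and their side of the threshold; 2 reversed, both for Kars at 22 h (-0.11 without DMSO replicate 2 and -0.16 without BafA1 replicate 3; its range without single libraries was -0.16 to 0.26). No scaling alternative moved the median of all genes by more than 0.1. The counts of calls that moved by more than 1.5 times follow, and the cause was not tested. At 7 h, 1 synthetase was called higher with thinned libraries and 5 with the replicate block, beside 515 of 11023 and 906 of 12648 genes. At 14 h, 2 were called lower with the block and with only the libraries compared, of which 1 was cytosolic (Qars), and the fit of only these libraries called 1 mitochondrial gene higher. The calls lower among all genes were 2163 of 12648 with the block and 1780 of 11579 with only those libraries. Within that limit, 7 were called higher at 14 h with thinned libraries (Iars and Yars lost), and 12 with only the libraries compared (Lars, Mars1 and Ears2 added). The calls higher among all genes moved too, to 1201 of 11023 and 1871 of 11579, from 1526 of 12648. The block gave 2 calls for the step from 7 to 14 h, and the block, DESeq2 and no filter gave 1 from 14 to 22 h; between 7 and 22 h the block gave 10, against 4 with only the libraries compared (Dars and Rars lost). For the synthetases the replicate block ended no call and changed no call other than those given here and in the results (Nars between 1 and 22 h was added).

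Leaving out 1 library at a time gave 0 to 2 called higher at 7 h, 7 to 10 at 14 h (cytosolic 7 to 9, listed 6 to 8, mitochondrial 0 to 1, lower 0 to 1) and 15 to 16 at 22 h (cytosolic 14 to 15, listed 11 to 12). These fits tested 12944 to 13012 genes, of which 410 to 518 were higher at 7 h, 1088 to 1404 at 14 h and 1887 to 2333 at 22 h. For the synthetases the steps gave 0 to 1 from 1 to 7 h, 0 from 7 to 14 h, 0 to 1 from 14 to 22 h, 3 to 8 between 7 and 22 h (listed 3 to 6) and 9 to 12 between 1 and 22 h (listed 7 to 10, lower 0 to 1). Higher effects among all genes numbered 539 to 987 between 7 and 22 h and 1093 to 1510 between 1 and 22 h. The median SE at 22 h was 0.40 for the mitochondrial genes and 0.20 for the cytosolic genes; how far depth set this was not tested.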
